A study of Mus musculus with 18 samples.

Results

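Control embryoid bodies were followed here from day 3 to day 4 of differentiation. The cells were the mouse embryonic stem cell line i-Mixl1, whose name refers to the homeobox gene Mixl1, and no doxycycline (DOX) was given. The day 3 and the day 4 control group had 3 samples each, 6 of the 18 samples of the series, and were chosen by these labels. The other samples are 3 control samples of day 2 and 9 samples of the same line that received DOX at 0.1 ug/ml from 1 day after plating. The stem cell line is therefore common to all groups, and its uninduced state is what stands here for a control. The study's design text calls the 3 samples of a group biological replicates. Mixl1 itself was not analysed here.

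Embryoid bodies are aggregates of embryonic stem cells that differentiate without a fixed pattern. Over a few days the cells leave pluripotency, pass through an epiblast-like and then a primitive streak-like state, and give rise to mesoderm and endoderm. In the mouse embryo this step depends on BMP, Wnt and Nodal signals, and early mesoderm is recognised by transcription factors such as Hand1, Gata4 and Mesp2 and by the receptor Pdgfra.

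RNA was amplified, labelled with a dye and hybridised to spotted mouse cDNA arrays, each of which carried a DOX and a control sample of 1 day. Values are log2 intensities of the green scanner channel, that of the dye Cy3, after normalization over the 9 arrays. Of several probes for a gene, the brightest, with the highest mean over the 9 control samples, stands for it. Day 4 values enter that mean, so a rise at day 4 can itself make a probe the brightest. The median raw intensity over probes ran from 252 to 394 in the 6 samples, and between 63.1% and 70.1% of probes had a signal-to-noise ratio of at least 1.4, the limit used here for a signal well above background. Normalized values of the samples of a day correlated across probes with r from 0.968 to 0.973 at day 3 and from 0.964 to 0.983 at day 4, and values of day 3 with day 4 samples with r from 0.947 to 0.97; probes are not independent replicates. Each day had arrays of its own, so day and hybridization cannot be told apart. The deposited value table assigns the green channel to the controls, while the dye in the labels (Cy5) would place them in the red channel. Which of the 2 holds the controls is not settled by these sources, so every direction below is that of the green channel, and the change in the red channel of the same arrays is compared with it further on. The number of arrays limits the precision of every value. The ± values are limma's standard errors, with 3 samples on each day, and adjusted p-values are Benjamini-Hochberg values from limma over all probes tested.

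Between day 3 and day 4 the mesoderm genes Hand1, Gata4 and Pdgfra rose in the green channel. So did the signals Bmp4, Dkk1 and Rspo3 and the imprinted genes Igf2 and Cdkn1c. The pluripotency genes Dppa5a and Gdf3, the methyltransferase Dnmt3b and the adhesion genes Epcam and Cldn7 fell there. Of these genes Gata4, Dkk1, Rspo3, Dnmt3b, Epcam and Cldn7 kept their direction in the red channel without passing. Of 15242 probes tested, 347 passed the threshold (2.28% called), 177 higher (1.16%) and 170 lower (1.12%) at day 4, and 1886 had an unadjusted p under 0.05. By the brightest probe, 181 of 5221 genes with a symbol passed (3.47%), 96 higher (1.84%) and 85 lower (1.63%). The median fold of the called genes was 2.97 among the higher and 2.56 among the lower ones. In these bulk samples, fewer cells of a type and less RNA per cell cannot be told apart. Without replicate 2 of day 4 the count of probes was 214, without replicate 3 of day 4 it was 183, and with the median of each print block subtracted it was 713. Among probes above the median intensity 38.9% of the called probes were higher, and by the authors' scaled values 36.2%, against 51% in the main analysis.

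**Figure D1:**
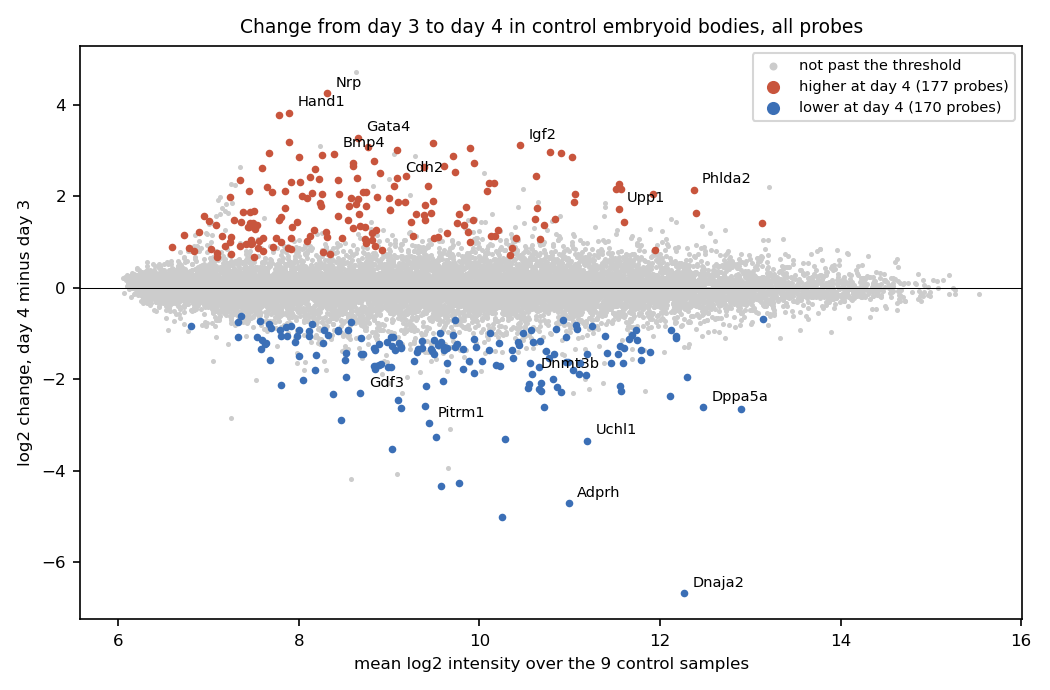
Log2 change from day 3 to day 4 in control embryoid bodies (vertical axis) against the mean log2 intensity over the 9 control samples (horizontal axis), 1 point per probe. The 177 higher probes reach down to the dim end of the scale, and Dnaja2 is the lowest of the 170 lower ones.

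Hand1, Gata4 and Pdgfra, regulators and a receptor of early mesoderm, were among the 15 largest increases. Hand1, a basic helix-loop-helix factor of lateral plate mesoderm, heart and trophoblast, had log2 intensities of 6.98, 6.58 and 6.59 at day 3 and of 11.30, 10.15 and 10.19 at day 4. All day 4 samples lay above all day 3 samples, which were not well above background, so that Hand1 was at least 14.2-fold higher (fitted log2 change 3.83 ± 0.30, adjusted p = 0.000272). Gata4, a zinc finger factor of heart and endoderm, had log2 intensities of 7.18, 7.76 and 8.02 at day 3 and of 10.65, 11.08 and 11.06 at day 4. The groups did not overlap, and the difference was 9.68-fold (log2 3.28 ± 0.25, adjusted p = 0.000272). A second, dimmer probe of Gata4 was not well above background on either day (log2 0.08, adjusted p = 0.905). Pdgfra, the alpha receptor for platelet-derived growth factor, had log2 intensities of 7.29, 7.01 and 6.78 at day 3 and of 10.84, 9.81 and 9.96 at day 4. It was not well above background at day 3 and was at least 9.01-fold higher at day 4 (adjusted p = 0.000423). Of the 8 measured members of the lateral plate and cardiac mesoderm list, 5 rose, 0 fell and 3 did not pass, with a median log2 change of 1.87 against -0.0245 over all genes. Gata5, Snai2 and Myl4 were the 3 that did not pass, with log2 changes of -0.05, 0.10 and -0.17. The median turned to -0.112 when probes under the median intensity were dropped, which left 2 of the 8 members, and to -0.0216 in the authors' scaled values, which held 4. Gata4 and Pdgfra are also on the extraembryonic endoderm list. Of its 15 measured members 3 rose, 1 fell and 11 did not pass, with a median of 0.148.

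Genes of paraxial mesoderm rose as well. Aldh1a2, the enzyme that makes retinoic acid from retinaldehyde, had log2 intensities of 6.74, 6.72 and 7.07 at day 3 and of 9.70, 9.73 and 9.67 at day 4. It was not well above background at day 3 and was at least 7.24-fold higher at day 4 (log2 2.86 ± 0.17, adjusted p = 0.000184). Mesp2, a segmentation factor of presomitic mesoderm, had log2 intensities of 7.40, 7.63 and 7.74 at day 3 and of 9.53, 9.39 and 9.71 at day 4. The day 4 samples were all higher (log2 1.95 ± 0.15, adjusted p = 0.000225), and a second probe rose by 2.08, while the 4 dimmest probes of Mesp2 did not pass. Of the 4 measured members of the paraxial list, 3 rose, 0 fell and 1, Cited1, did not pass (log2 0.56, adjusted p = 0.53). Of the primitive streak genes, T was not well above background in any sample of days 3 and 4, and Eomes had log2 intensities of 11.43, 10.77 and 10.49 at day 3 and of 12.07, 11.88 and 11.88 at day 4. Its change of 1.05 ± 0.30 did not pass (adjusted p = 0.136), although all day 4 samples were the higher ones, and the days did not overlap for 18.8% of all genes, 8.77% higher and 10% lower (16.4% of probes, 7.87% higher and 8.56% lower). Tdgf1, the Nodal co-receptor Cripto, overlapped between the days (log2 0.88 ± 0.43, adjusted p = 0.466).

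**Figure D2:**
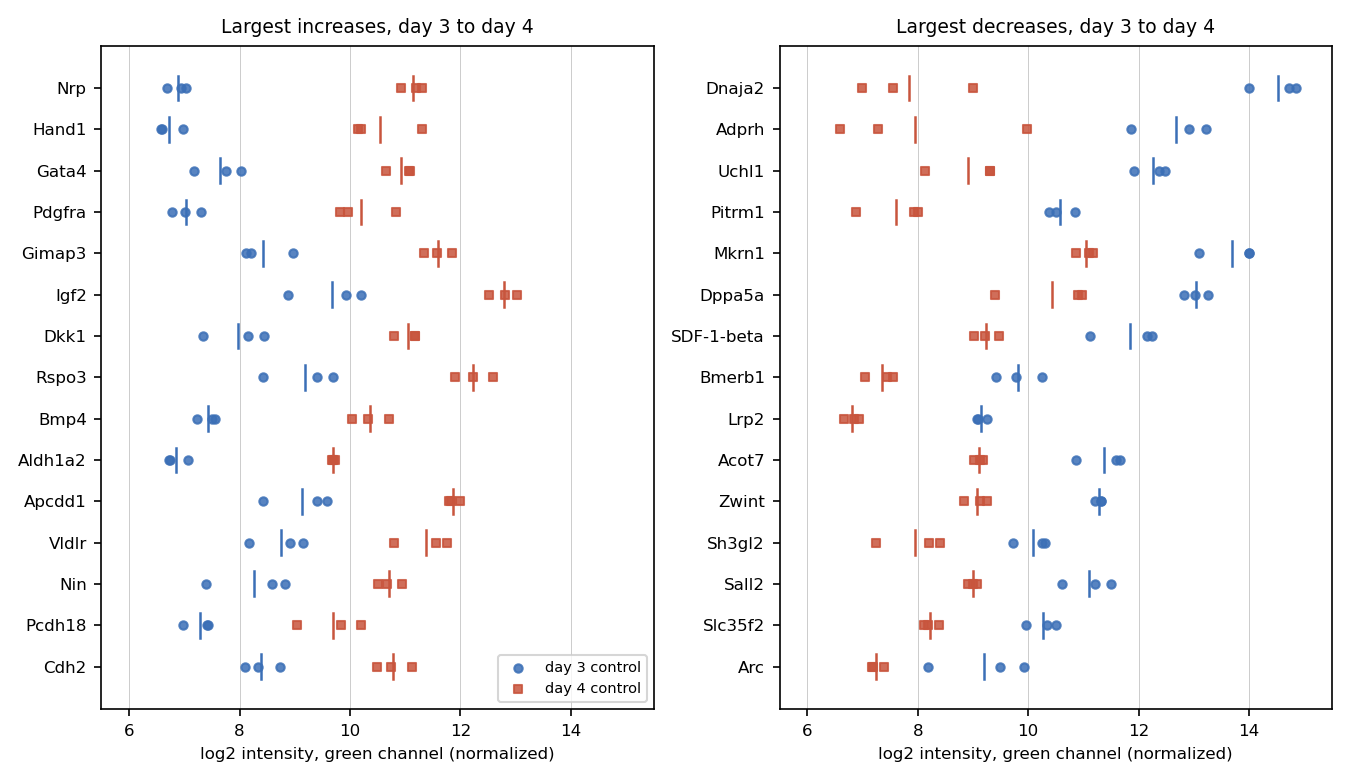
Normalized log2 intensity in each control sample (horizontal axis) of the 15 genes with the largest increases (left) and the 15 with the largest decreases (right) by the rule for named genes, day 3 as circles, day 4 as squares, vertical bars as means. The 3 samples of one day lie on one side of the 3 of the other for every gene shown, which the rule required.

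The BMP ligands Bmp4 and Bmp5 rose, and so did several genes known as BMP targets. Bmp4, a ligand that induces ventral and posterior mesoderm, had log2 intensities of 7.22, 7.51 and 7.56 at day 3 and of 10.71, 10.03 and 10.33 at day 4. Day 3 samples were low and close together, with 1 of the 3 well above background, and the increase was 7.6-fold (log2 2.93 ± 0.19, adjusted p = 0.000143). Bmp5, a ligand of the same family, had log2 intensities of 8.04, 7.52 and 7.82 at day 3 and of 9.31, 10.99 and 10.11 at day 4. Its day 4 samples spread more widely and all were above those of day 3 (log2 2.34 ± 0.36, adjusted p = 0.00987). Of the targets, Gata3 had log2 intensities of 7.51, 7.34 and 7.70 at day 3 and of 9.68, 9.52 and 9.54 at day 4. Tbx3, a T-box repressor, had log2 intensities of 7.53, 6.90 and 7.36 at day 3 and of 9.60, 9.57 and 9.53 at day 4. The days did not overlap for either, and Gata3 rose 4.18-fold (adjusted p = 0.000184) and Tbx3 4.94-fold (adjusted p = 0.000225). At day 3 Tbx3 was well above background in 1 of the 3 samples. The BMP pathway list had 12 measured members, of which 6 rose, 0 fell and 6 did not pass, with a median log2 change of 1.17; Hand1 is counted here as in the mesoderm and trophoblast lists, and Bmp4 in the mesoderm list. Id2 and Id3, inhibitors of basic helix-loop-helix factors, were among those that did not pass (log2 0.03 and 0.11), as were the receptor Bmpr1a (0.34) and the signal transducer Smad5 (0.49).

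Among Wnt pathway genes, 3 modulators that act at the cell surface rose, and the target Ccnd2 by 1 of its 3 probes. Dkk1, a secreted antagonist of Wnt receptors, had log2 intensities of 8.44, 7.34 and 8.16 at day 3 and of 10.79, 11.18 and 11.18 at day 4. The day 4 samples were all higher, by 8.42-fold (log2 3.07 ± 0.29, adjusted p = 0.000931). Rspo3, an R-spondin that strengthens Wnt signals, had log2 intensities of 9.70, 8.43 and 9.40 at day 3 and of 11.89, 12.59 and 12.22 at day 4. It rose 8.32-fold (log2 3.06 ± 0.32, adjusted p = 0.00132) and lies in print block 4, whose 317 probes had the highest median change of all blocks, 0.421. Apcdd1, a membrane-bound Wnt inhibitor whose clone is noted as giving no PCR product, rose 6.65-fold (log2 2.73 ± 0.31). Of the 10 measured members 4 rose, 0 fell and 6 did not pass, with a median of 0.384. Ccnd2, cyclin D2, passed by its brightest probe only (1.87), its others being at 0.91 (adjusted p = 0.0896) and -0.15, and by the mean over probes 3 of the 10 rose. The 6 included the secreted Dkk3 (0.28) and the intracellular components Ctnnb1, which encodes beta-catenin (-0.01), Gsk3b (0.05), Apc (-0.47) and Tcf7l2 (0.49).

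Growth regulators that are imprinted, that is, expressed from 1 parental allele, rose in part. Igf2, the fetal growth factor, had log2 intensities of 8.88, 9.94 and 10.20 at day 3 and of 12.81, 12.53 and 13.03 at day 4. It was 8.65-fold higher (log2 3.11 ± 0.33, adjusted p = 0.00131), and its second probe rose by 2.87. Phlda2, which restricts placental growth, had log2 intensities of 11.24, 11.64 and 11.95 at day 3 and of 13.39, 13.95 and 13.90 at day 4. Cdkn1c, which encodes the cyclin-dependent kinase inhibitor p57, had log2 intensities of 8.79, 9.17 and 8.90 at day 3 and of 10.75, 11.04 and 11.41 at day 4. Both rose beyond the spread of the samples, by 2.14 ± 0.30 and 2.12 ± 0.29. Peg10, a retrotransposon-derived gene needed for the placenta, rose by 1.95 ± 0.27 (adjusted p = 0.00529). Of 14 measured members of the list 5 rose, 0 fell and 9 did not pass, with a median of 0.542. H19, the maternally expressed partner of Igf2, did not pass (log2 -0.47, adjusted p = 0.32), nor did Meg3 (-0.26) or Igf2r (0.21).

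Several of these genes are also on the trophoblast list, of which 6 of 11 measured members rose, 0 fell and 5 did not pass, with a median of 1.1. The 6 were Hand1, Gata3, Phlda2, Peg10, Plac1 and Tfap2c, and 2 of them, Phlda2 and Peg10, are on the imprinted list. Plac1, a gene named for its placental expression, had log2 intensities of 6.45, 6.50 and 6.62 at day 3 and of 9.18, 8.0 and 8.34 at day 4. It was not well above background at day 3 and was at least 3.95-fold higher at day 4, and its second probe rose by 1.57. Tfap2c, a transcription factor of trophoblast and germ cells, rose by 1.10 ± 0.22 (adjusted p = 0.0407). Krt8 and Krt18, keratins of simple epithelia, did not pass (0.41 and -0.06).

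Genes of the cell surface and of mesenchyme moved unevenly. Cdh2, which encodes N-cadherin, had log2 intensities of 8.10, 8.34 and 8.74 at day 3 and of 10.48, 11.13 and 10.74 at day 4. It was 5.24-fold higher at day 4 (log2 2.39 ± 0.25, adjusted p = 0.00126). A second, dimmer probe of Cdh2, noted as giving no PCR product, did not pass (log2 0.77, adjusted p = 0.0756). Zeb1, a repressor of E-cadherin, had log2 intensities of 6.55, 6.30 and 6.67 at day 3 and of 8.56, 9.29 and 8.75 at day 4. It was not well above background at day 3 and was at least 4.99-fold higher at day 4 (adjusted p = 0.00095). Of 12 measured mesenchymal genes 2 rose, these ones, 0 fell and 10 did not pass, with a median of 0.45. Vim, the intermediate filament of mesenchyme, did not pass (log2 0.72 ± 0.36, adjusted p = 0.501). Tgfb2, a ligand of the TGF-beta family, was at least 2.59-fold higher, and Pdgfrb, the beta receptor for platelet-derived growth factor, rose by 1.28 ± 0.17. Cdh1, which encodes E-cadherin, was not well above background on any array of the 2 days (log2 -0.28 ± 0.12, adjusted p = 0.378).

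Other large increases had no common list. Nrp, a symbol of neuropilin, which binds semaphorins and VEGF, had log2 intensities of 6.94, 6.68 and 7.04 at day 3 and of 11.30, 10.93 and 11.20 at day 4. It was not well above background at day 3 and at least 19-fold higher at day 4, with an adjusted p of 6.66e-06. Vldlr, a receptor for lipoproteins and reelin, rose 6.18-fold, and all 3 of its probes passed, with log2 changes of 2.63, 3.00 and 2.91, the first 2 of them in print block 4. Gimap3, a GTPase known from lymphocytes, rose 8.94-fold by the brightest of its 3 probes, while the others did not pass (log2 0.02 and 0.64). At day 3 alone that probe was the dimmest of the 3, with a mean of 8.43 against 8.72 and 8.54. Nin, the centrosomal protein ninein, rose by 2.44 ± 0.34 and Pcdh18, a protocadherin, by 2.42 ± 0.29. Hmga2, an architectural chromatin protein, had log2 intensities of 11.41, 11.85 and 12.07 at day 3 and of 13.43, 14.03 and 14.02 at day 4. It rose by 2.05 ± 0.31, and of its 2 dimmer probes 1 passed (1.67) and 1 did not (1.6, adjusted p = 0.073). Upp1, which cleaves uridine and whose clone is noted as giving no PCR product, rose 3.3-fold (log2 1.72 ± 0.14). Adgra2, an adhesion receptor of endothelial cells, was at least 4.97-fold higher by 1 of its 2 probes and at -0.10 by the other. The probe that rose was the dimmer one at day 3, with a mean of 7.30 against 7.61. Gas1, a cell surface protein known as a Hedgehog co-receptor, rose by 1.86 ± 0.31.

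Pluripotency genes fell in part. Dppa5a, an RNA-binding protein of embryonic stem cells, had log2 intensities of 12.82, 13.02 and 13.25 at day 3 and of 9.40, 10.90 and 10.97 at day 4. It was 6.1-fold lower at day 4 (log2 -2.61 ± 0.37, adjusted p = 0.00671), with replicate 1 of day 4 the lowest, and its second probe fell by 2.38. Gdf3, a TGF-beta family ligand of pluripotent cells, had log2 intensities of 8.24, 8.93 and 9.21 at day 3 and of 6.58, 6.43 and 6.47 at day 4. At day 4 it was not well above background and at least 4.84-fold lower (adjusted p = 0.00191). Pou5f1, which encodes Oct4, had log2 intensities of 12.74, 13.03 and 13.25 at day 3 and of 12.03, 11.87 and 12.30 at day 4. All day 4 samples were lower, but the change of -0.94 ± 0.23 did not pass (adjusted p = 0.077). Zfp42, which encodes Rex1, had log2 intensities of 8.29, 8.78 and 8.09 at day 3 and of 7.5, 7.19 and 7.29 at day 4. It was not well above background at day 4, and its change of -1.06 ± 0.24 did not pass either (adjusted p = 0.0604). Of 11 measured members of the list 2 fell, 1 rose and 8 did not pass, with a median of -0.701. The member that rose was Tbx3, which is also a gene of early mesoderm and extraembryonic tissue.

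Dnmt3b, a DNA methyltransferase of the epiblast, had log2 intensities of 10.57, 11.83 and 10.93 at day 3 and of 9.08, 8.69 and 9.88 at day 4. It was 3.71-fold lower at day 4 (log2 -1.89 ± 0.40, adjusted p = 0.0473), and the call was lost without replicate 2 or 3 of day 3 or replicate 1 or 2 of day 4, with adjusted p between 0.105 and 0.155. Sall2, a zinc finger factor, had log2 intensities of 10.61, 11.51 and 11.21 at day 3 and of 9.08, 8.90 and 9.0 at day 4. It was 4.32-fold lower at day 4 (log2 -2.11 ± 0.23, adjusted p = 0.00168). Of 5 measured members of the primed epiblast list 2 fell, 0 rose and 3 did not pass, with a median of -0.854; Otx2, a homeobox gene of epiblast and anterior neural tissue, was at 0.16 (adjusted p = 0.96). Rhox5, an X-linked homeobox gene, had log2 intensities of 10.07, 9.68 and 9.86 at day 3 and of 8.52, 8.44 and 8.65 at day 4. It fell by 1.33 on the log2 scale (adjusted p = 0.00191), and Tex19.1, a gene of germ cells and stem cells, changed by -0.92 ± 0.18 (adjusted p = 0.0341).

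Oct4 binds the octamer ATGCAAAT. To show which windows hold it, the RefSeq promoter windows (build GRCm38.p6, 300 bases around a gene's start) of the 78 genes named by a fixed rule (given with the processing) were searched on both strands. Of these 55 had a window, and of the 71 windows searched for them 3 held the octamer, against 1.74% of all 32851 windows. The GATA motif AGATAA was found in 4 of the 71 (11.2% of all windows), the TCF/LEF motif CTTTGAT in 1 (3.73%) and the T-box motif GGTGTGA in 0 (3.98%). No motif holds another of them within it. The 3 windows with the octamer, in capitals on either strand, are those of Zfp42 and Spp1, lower at day 4 in all samples, and of Aldh1a2, higher in all samples. A match is a description and not a site.
Zfp42, chr8:43306960-43307259, minus strand: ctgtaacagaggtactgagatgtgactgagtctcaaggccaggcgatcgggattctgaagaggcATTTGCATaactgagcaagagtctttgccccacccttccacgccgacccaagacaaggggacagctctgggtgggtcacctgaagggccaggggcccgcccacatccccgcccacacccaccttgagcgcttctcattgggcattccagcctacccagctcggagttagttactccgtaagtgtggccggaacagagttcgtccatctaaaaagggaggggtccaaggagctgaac
Spp1, the downstream of its windows, chr5:104435942-104436241, plus strand: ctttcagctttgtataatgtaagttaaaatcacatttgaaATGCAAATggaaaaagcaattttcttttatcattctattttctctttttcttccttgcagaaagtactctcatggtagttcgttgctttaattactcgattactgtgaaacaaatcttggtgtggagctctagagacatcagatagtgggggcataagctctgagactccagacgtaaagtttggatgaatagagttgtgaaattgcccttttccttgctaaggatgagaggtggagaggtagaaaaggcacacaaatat
Aldh1a2, chr9:71215539-71215838, plus strand: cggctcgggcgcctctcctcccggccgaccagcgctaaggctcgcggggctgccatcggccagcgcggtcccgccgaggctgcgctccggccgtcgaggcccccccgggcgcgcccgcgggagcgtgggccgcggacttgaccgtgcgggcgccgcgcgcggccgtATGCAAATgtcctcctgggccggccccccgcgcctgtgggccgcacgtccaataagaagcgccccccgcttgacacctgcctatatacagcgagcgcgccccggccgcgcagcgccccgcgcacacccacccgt

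Spp1, which encodes the secreted matrix protein osteopontin, had log2 intensities of 9.63, 8.52 and 10.01 at day 3 and of 7.70, 7.73 and 7.63 at day 4. It fell by 1.70 on the log2 scale (adjusted p = 0.032) and was at -0.04 ± 0.31 in the red channel. Some epithelial genes were lower too. Cldn7, a claudin of tight junctions, had log2 intensities of 11.18, 12.13 and 11.72 at day 3 and of 10.03, 9.97 and 10.17 at day 4. Epcam, an adhesion molecule of epithelia and stem cells, had log2 intensities of 12.67, 12.90 and 12.40 at day 3 and of 11.67, 11.56 and 11.54 at day 4. Both were lower in all day 4 samples, Cldn7 by 3.08-fold (adjusted p = 0.00664) and Epcam by 2.09-fold (adjusted p = 0.00619). Spint1, an inhibitor of surface proteases, changed by -0.90 ± 0.16. In the other direction Dsp, the desmosomal protein desmoplakin, rose by 1.64 ± 0.33. Of 15 measured epithelial genes 3 fell, 1 rose and 11 did not pass, with a median of -0.449. Col18a1, a basement membrane collagen, fell by 1.63 on the log2 scale by its brighter probe (adjusted p = 0.00547), and its second probe was not well above background.

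Nes, the intermediate filament nestin of neural progenitors and epiblast-derived cells, had log2 intensities of 11.07, 11.84 and 11.97 at day 3 and of 10.05, 9.69 and 10.19 at day 4. It was 3.13-fold lower at day 4 (adjusted p = 0.00955). Uchl1, a ubiquitin hydrolase abundant in neurons and stem cells, had log2 intensities of 11.92, 12.37 and 12.48 at day 3 and of 8.13, 9.30 and 9.31 at day 4. It fell by 3.34 on the log2 scale (adjusted p = 0.000931), and its second probe fell by 3.30. Of 9 measured neuroectoderm genes 2 fell, 1 rose and 6 did not pass; the one that rose, Irx3, changed by 0.80 ± 0.17. Other decreases were those of Mkrn1, a makorin ubiquitin ligase (6.25-fold, with a second probe at -1.95 and the dimmest, not past the test, at -0.48), of the chemokine named SDF-1-beta on the array (6.07-fold) and of Acot7, an acyl-CoA thioesterase (4.8-fold). Lrp2, the endocytic receptor megalin, was at least 5.01-fold lower and not well above background at day 4. Bmerb1, Slc35f2, a solute carrier, and Arc had log2 changes of -2.47, -2.04 and -1.95, all past the threshold. Zwint, a kinetochore protein, fell by 2.20 and Sh3gl2, an endophilin of synaptic vesicles, by 2.14 on the log2 scale by their brightest probes. Their other probes did not pass, with changes of 0.69 and 0.09 for Zwint and of -0.44 and 0.16 for Sh3gl2.

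The largest fitted decrease was that of Dnaja2, a co-chaperone of Hsp70, which had log2 intensities of 14, 14.71 and 14.84 at day 3 and of 9.0, 7.54 and 7.0 at day 4. A second probe of Dnaja2 in another print block changed by -0.19 (adjusted p = 0.86). The probe that fell lies in row 3 of print block 21. Adprh, which removes ADP-ribose from arginine, had log2 intensities of 11.86, 12.92 and 13.23 at day 3 and of 9.98, 7.29 and 6.59 at day 4, and Pitrm1, a mitochondrial peptidase, had log2 intensities of 10.49, 10.84 and 10.37 at day 3 and of 8.01, 7.94 and 6.89 at day 4. Both lie in the same block and fell in both channels. Of the 9 probes lower in that block 7 lie among its 71 probes of rows 2 to 5, and all 7 were also lower in the red channel. Over all probes 1.12% were lower. Other blocks held as many lower probes, 10 in block 45, where Acot7 and Sall2 lie, and 9 each in blocks 18 and 28. The part that position plays in these values was not tested, and without print block 21 the counts were 173 higher and 159 lower.

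The cell types that such cultures could hold were checked by their markers. Of 8 listed pluripotent and epiblast markers 5 were measured, each well above background on all arrays of day 3. At day 4 Zfp42 was so on 0 arrays, and the others were on all 3. The linear intensities of the 5 summed to 21500 to 26670 at day 3 and 14820 to 20110 at day 4. The 2 measured mesoderm markers, Hand1 and Pdgfra, summed to between 206.7 and 283.5 at day 3 and between 2032 and 4352 at day 4. Of the 3 measured blood markers 0 were above background on all arrays of a day, and their sum was 311.5 to 375.1 at day 3 and 351.8 to 416.3 at day 4. The extraembryonic endoderm markers Ttr, Apoa1 and Dab2, of 6 listed, summed to 859.3 to 1265 at day 3 and 707.7 to 812.9 at day 4, and none of the 3 passed the test. The 2 measured trophoblast markers, Plac1 and Tfap2c of 4 listed, summed to 589.1 to 736.3 and 1512 to 1776, the neuroectoderm markers Nes and Zic1 of 4 listed to 2272 to 4128 and 940.9 to 1276, and the primitive streak markers Eomes and T of 6 listed to 1520 to 2847 and 3865 to 4375. Of endothelial markers Pecam1 alone was measured (134.9 to 139.6 and 135 to 165.4), and of fibroblast feeder markers Col1a2 alone, which did not pass (log2 0.36, adjusted p = 0.78). The part of such cells in the results above was not tested.

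No member was called in 5 lists of general cell functions, where 3.47% of all genes were called in the green and 2.59% in the red channel. The co-chaperone Dnaja2 and the kinetochore protein Zwint, which fell by their brightest probes, are not on these lists. Glycolysis and hypoxia, oxidative phosphorylation, DNA replication and mitosis, ribosomal proteins, and chaperones and the unfolded protein response had 186 distinct measured members, of which limma called 0 in either channel and 16 (8.6%) had an unadjusted p under 0.05, against 837 of 5221 genes (16%). Their medians were 0.119, -0.0471, -0.0748, -0.0317 and -0.02, and the sign of each changed in at least 1 of the alternatives tried. The log2 change was within 1 for 182 of the 186 (97.8%), against 94.3% of all genes; Tpi1, a glycolytic isomerase, was the farthest at 2.2 and did not pass. Of the 33 lists 10 had no called member. Blood genes were among them in the green channel, with 0 of 6 called and a median of 0.118, while in the red channel 3 of the 6 were called higher, with a median of 1.24. In the green channel Hbb-y, an embryonic beta globin, was not well above background on either day.

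**Figure D3:**
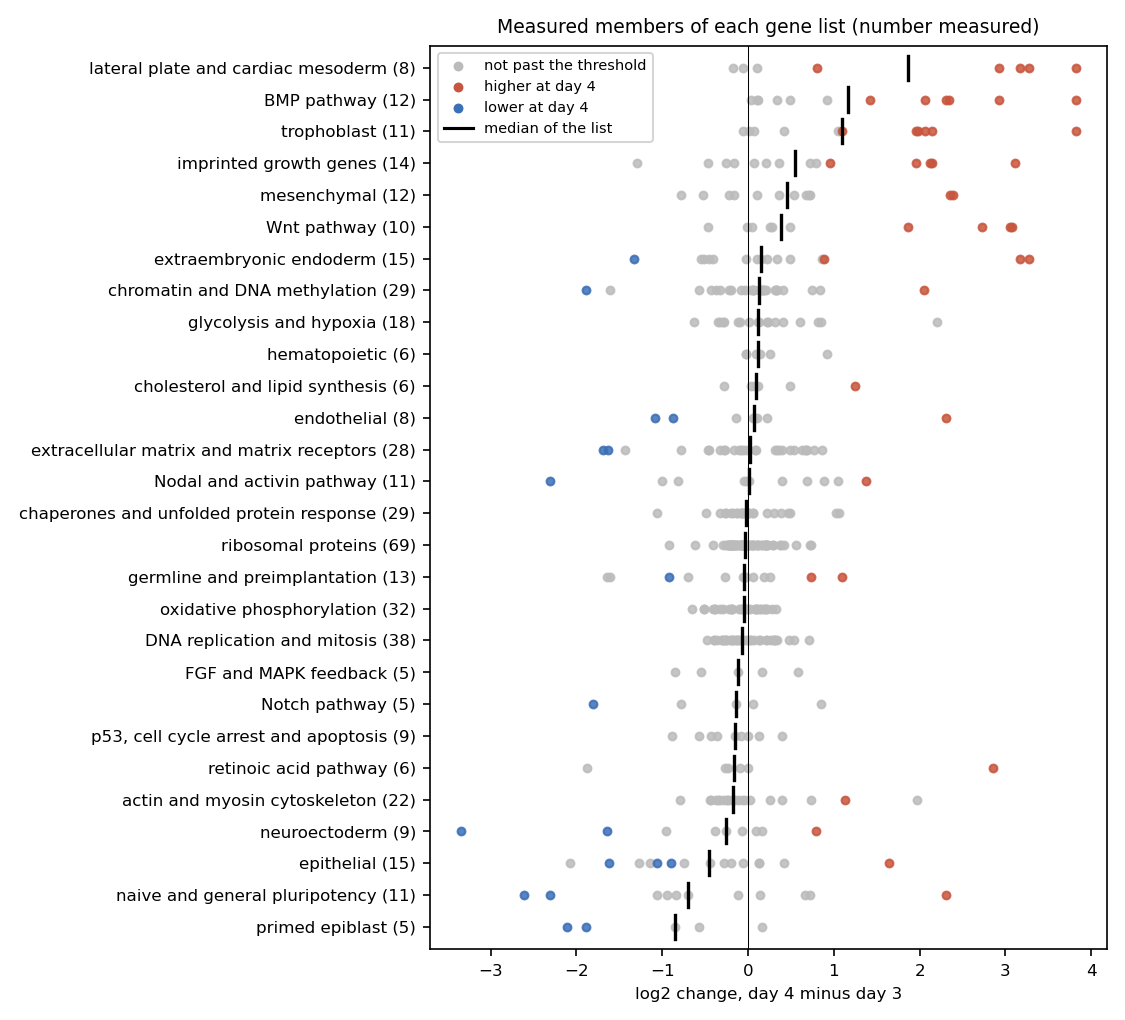
Log2 change from day 3 to day 4 (horizontal axis) of each measured member of the gene lists with at least 5 measured members, coloured by call, with the median of each list as a black bar. The lateral plate, BMP and trophoblast lists have the highest medians, 1.87, 1.17 and 1.1, and the primed epiblast list the lowest, -0.854.

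The red channel of the same arrays gave a second reading of the step from day 3 to day 4, in the other samples of each array. There 274 of 15242 probes passed (1.8%), 151 higher (0.991%) and 123 lower (0.807%). Of the 177 probes higher in the green channel 78 were also higher in the red channel and 1 was lower, and of the 170 lower probes 76 were also lower and 0 were higher. The 2 channels share arrays and spots, so they are not independent readings. By gene, 46 of the 96 higher and 33 of the 85 lower genes passed in both, where 2.59% of all genes passed in the red channel, 1.47% higher and 1.11% lower, so that their direction is the same whichever channel holds the controls. Hand1 changed by 3.29 ± 0.22 in the red channel, Bmp4 by 2.72 ± 0.18, Igf2 by 2.59 ± 0.33 and Zeb1 by 2.24 ± 0.23, all past the threshold. Dppa5a changed there by -2.22 ± 0.42, Gdf3 by -2.54 ± 0.29, Nes by -2.06 ± 0.16 and Rhox5 by -1.40 ± 0.19, also past the threshold. Not past it there were Gata4 at 0.97 ± 0.35, Dkk1 at 0.95 ± 0.32 and Rspo3 at 1.32 ± 0.32. Nor were Dnmt3b at -1.36 ± 0.32, Epcam at -0.31 ± 0.15 and Cldn7 at -0.67 ± 0.22. Their adjusted p by limma ran from 0.0747 to 0.465.

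Counts of list members were lower in the red channel for several lists. Of the lateral plate list 4 of 8 were called higher there (median 1.27), of the paraxial list 1 of 4 (1.1), of the Wnt list 2 of 10 (0.367), of the trophoblast list 4 of 11 (0.584) and of the mesenchymal list 1 of 12 (0.213), with 0 lower in each. The BMP list had 6 of 12 higher (0.95) and the imprinted list 5 of 14 (0.392), again with 0 lower, as many as in the green channel. The median of the 4 primitive streak genes was 0.967 in the green and -0.936 in the red channel, and that of the 15 epithelial genes -0.449 and 0.0812, with 0 called in the red channel in both lists. Of the pluripotency list 5 of 11 were lower and 1 higher in the red channel (median -0.874), of the primed epiblast list 1 of 5 was lower (-0.664), and of the neuroectoderm list 1 of 9 (-0.13).

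The change itself differed between the channels for 1003 of 15242 probes (6.58%), 600 with a higher (3.94%) and 403 with a lower change (2.64%) in the red channel, and for 9.5% of genes (5.59% and 3.91%). Of all genes called in the green channel, 59 of the 96 higher and 36 of the 85 lower were among those that differed. Of the 67 named ones 44 were. The call and the difference share the green values, so all these counts are partly set by the call. The rule for named genes took in the largest differences and the largest green changes. Counts among named genes are therefore partly set by that rule. For 23 of the higher named genes the red change was the smaller and for 4 the larger. For 17 of the lower named genes it was the less negative or above 0. Upp1 rose in the green channel and fell in the red channel (1.72 ± 0.14 against -1.42 ± 0.15), a difference of -3.14 ± 0.13 (adjusted p = 1.51e-09). Mesp2 was at 1.95 ± 0.15 against -0.75 ± 0.17, and Cdh2 at 2.39 ± 0.25 against -0.18 ± 0.31, the latter values not past the threshold. Eomes, Tdgf1 and Pou5f1 did not pass in the green channel, and in the red channel they were at -1.12 ± 0.30, -1.79 ± 0.45 and -2.08 ± 0.22, of which only that of Pou5f1 passed (adjusted p = 0.00135). Zfp42 passed in the red channel (-1.32 ± 0.25, adjusted p = 0.0298), and its difference between channels did not. The reverse was seen for Hbb-y and Hba-x, embryonic globins that rose in the red channel alone (1.53 ± 0.18 and 1.57 ± 0.32, against 0.25 ± 0.12 and 0.14 ± 0.16), with differences of 1.27 ± 0.13 and 1.43 ± 0.20 past the threshold. Gata1, a zinc finger factor of erythroid cells, differed by 0.87 ± 0.18, with neither channel past the threshold by itself. Plac1, Adgra2 and Tdo2, a tryptophan-degrading enzyme, rose in both and more in the red channel (3.17 ± 0.23, 3.39 ± 0.20 and 2.65 ± 0.18, against 1.98 ± 0.26, 2.31 ± 0.20 and 0.88 ± 0.15). In the green channel Tdo2 was well above background on 0 of 3 arrays at day 3 and 1 of 3 at day 4, so its change there is near background.

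**Figure D4:**
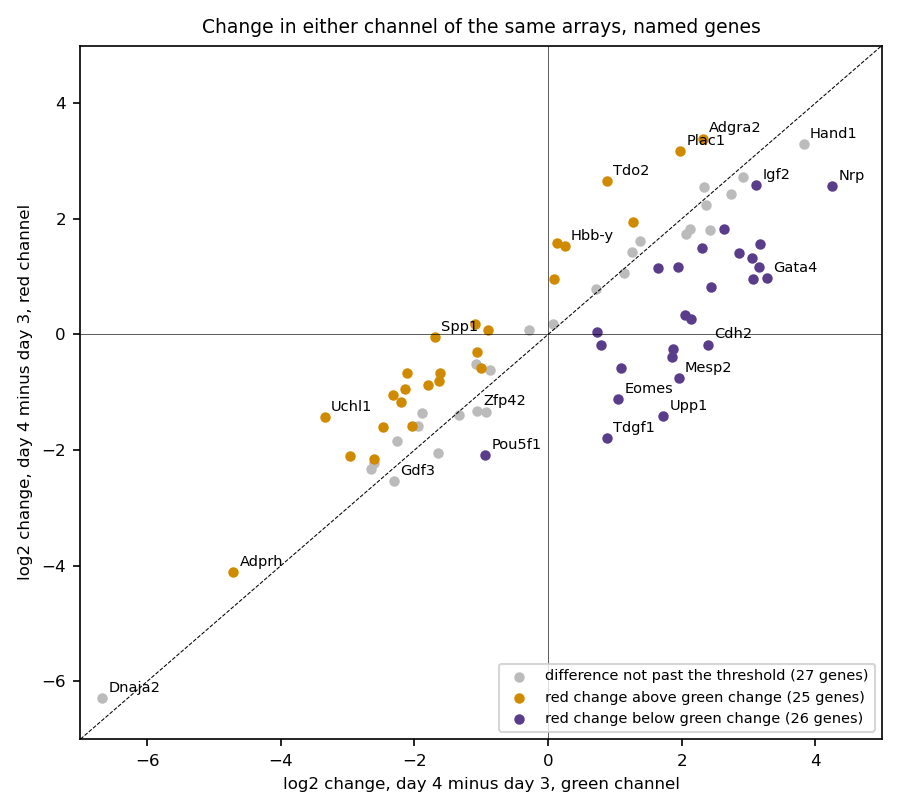
Log2 change from day 3 to day 4 in the red channel (vertical axis) against that in the green channel (horizontal axis) for the 78 named genes, coloured by whether the changes differed; the dashed line marks equal change. Upp1, Mesp2, Eomes and Tdgf1 lie right of the vertical axis line and below the horizontal one, and Dnaja2 lies near the dashed line at about equal decreases.

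The step from day 2 to day 3 in the controls, which shares the day 3 samples, called fewer probes, 114 of 15242 (0.748%), 44 higher (0.289%) and 70 lower (0.459%), or 1.02% of genes, 0.441% higher and 0.575% lower. The values are given side by side. Hand1 changed by 0.30 ± 0.30 from day 2 to day 3 and by 3.83 ± 0.30 from day 3 to day 4, Bmp4 by 0.05 ± 0.19 and 2.93 ± 0.19, and Gata4 by 0.27 ± 0.25 and 3.28 ± 0.25. At day 2, as at day 3, Hand1 was well above background on 0 of 3 arrays, Bmp4 on 1 and Gata4 on 2. First steps of these genes are therefore read near background, where a change could go unseen. For these 3 the second step was larger than the first by limma's test of the difference (adjusted p = 0.034, 0.0129 and 0.034), as the steps differed for 46 probes in all (0.302%), 26 of them in this direction (0.171%) and 20 in the other (0.131%), and for 0.46% of genes (0.287% and 0.172%). Cdkn1c changed by -1.27 ± 0.29 from day 2 to day 3, which did not pass (adjusted p = 0.122), and by 2.12 ± 0.29 from day 3 to day 4, and its steps differed (adjusted p = 0.034). Eomes rose earlier, by 2.44 ± 0.30 from day 2 to day 3 (adjusted p = 0.00724), before the change of 1.05 ± 0.30 that did not pass. Anxa2, a calcium-dependent membrane protein, rose in both steps, by 2.41 ± 0.23 and 1.14 ± 0.23, and so did Upp1, by 1.16 ± 0.14 and 1.72 ± 0.14.

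Nes rose and then fell, by 1.54 ± 0.25 and -1.65 ± 0.25, and the test of the difference passed (adjusted p = 0.0258). Ctla2a, a cysteine protease inhibitor, did likewise, with 1.15 ± 0.20 and -1.08 ± 0.20 (adjusted p = 0.048). The second probe of Ctla2a, at 0.64 and -0.66, passed in neither step. Tcstv1, a gene of early embryos, fell by 2.69 and then rose by 0.74 ± 0.15 (adjusted p = 0.00174). Gdf3, Rhox5 and Tex19.1 fell in both steps, with -1.96 ± 0.26, -1.18 ± 0.15 and -2.04 ± 0.18 from day 2 to day 3. Zfp42 fell by 2.24 from day 2 to day 3 (adjusted p = 0.00426), ahead of the change from day 3 to day 4 that did not pass. Dppa5a changed by -0.95 ± 0.37 in the first step, which did not pass, and Pou5f1 by 0.30 ± 0.23.

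**Figure D5:**
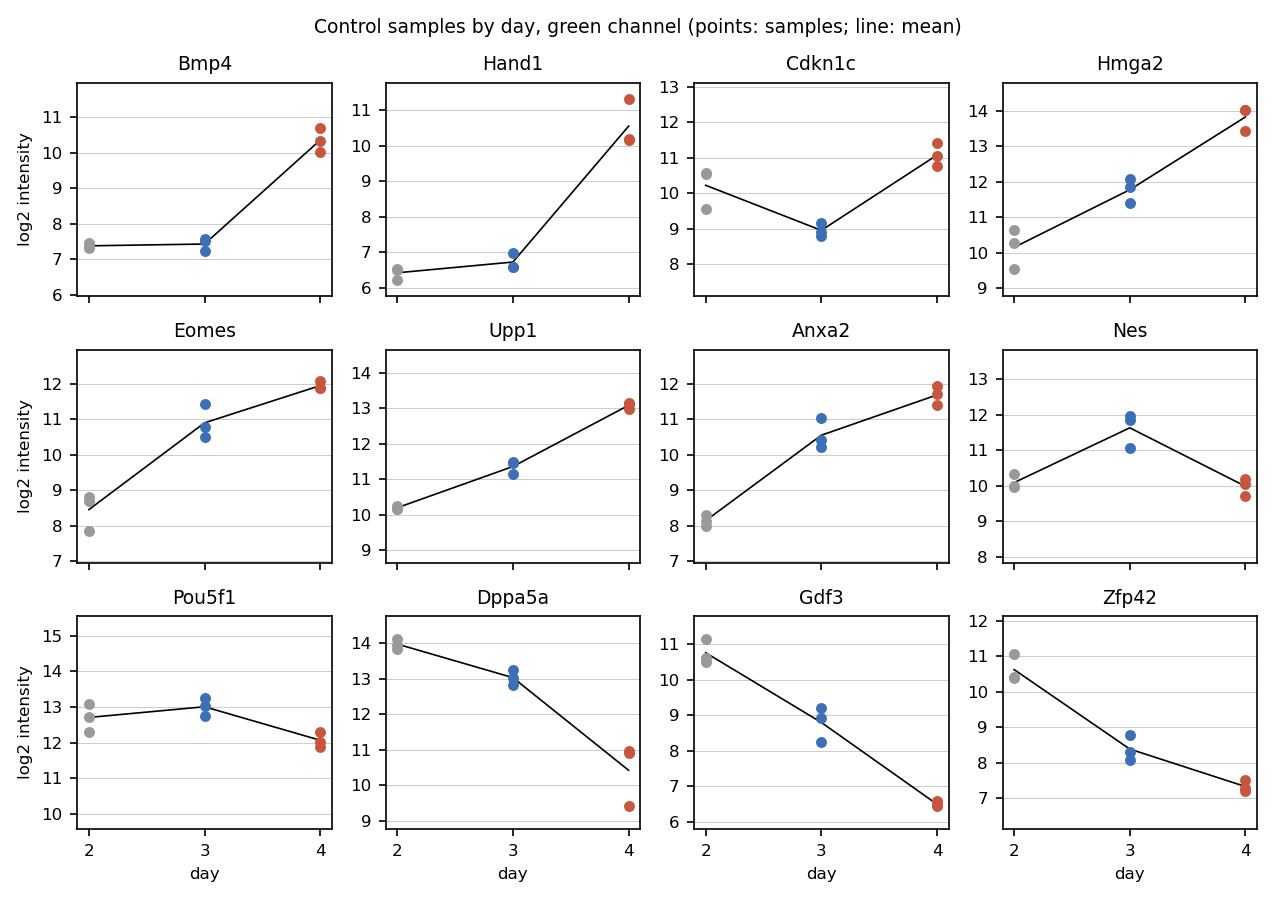
Log2 intensity (vertical axis) of 12 named genes in the 9 control samples by day (horizontal axis), points for samples and a line through the means; every panel spans the same log2 range. The means of Bmp4 and Hand1 lie close together at days 2 and 3, near background, and are higher at day 4. Nes is highest at day 3, and Gdf3 and Zfp42 are lower on each later day.

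Of the 67 named genes called, 12 kept their call without replicate 3 of every day. With 1 sample left out at a time, 48 of the 67 kept it without each of the 6 samples of days 3 and 4. The others lost it without 3 to 6 of the samples. Irx3 and Tcstv1 lost it without any one of the 6 (adjusted p from 0.0586 to 0.161). Anxa2, Spp1, Arc, Dsp, Ctla2a, Lima1, Spint1, Dtx1, Tex19.1, Ccnd2 and Tfap2c lost it without each of 5. All of these but Anxa2, Spp1, Ccnd2 and Tfap2c kept it without replicate 1 of day 3. Anxa2 and Spp1 kept it without replicate 2 of day 3, and Ccnd2 and Tfap2c without replicate 1 of day 4. Their adjusted p where lost ran up to 0.155, that of Anxa2. Cd34 lost it without replicates 2 and 3 of either day. Gas1 lost it without replicate 3 of day 3 or replicates 2 and 3 of day 4, Tdo2 without replicate 3 of day 3 or replicates 1 and 2 of day 4, and Adprh without replicates 2 and 3 of day 3 or replicate 2 of day 4 (adjusted p up to 0.0629, 0.086 and 0.0603). Cd34, a surface sialomucin of blood and endothelial progenitors, was at least 1.83-fold lower at day 4. Lima1, an actin-binding protein, changed by -1.10 ± 0.23 by its brightest probe, and its other probes did not pass (-0.64, 0.16 and -0.18). Dtx1, a regulator of Notch, changed by -1.80 ± 0.32, and Ccnd2 by 1.87 ± 0.38.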

How the data were processed

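Total RNA of control and DOX embryoid bodies went through 1 round of linear amplification and, per the labels' protocols, indirect Cy3 or Cy5 labelling. The authors deposited, for each spot and channel, the median foreground minus local background intensity on a linear scale, without normalization between arrays, and scores of the scanner software, a signal-to-noise ratio and a flag. They also deposited a table of intensities scaled within each day, whose columns equalled the scaled green channel for controls within 1e-06.

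The background-subtracted intensities were adjusted by normexp with an offset of 50, normalized by loess within arrays and by the mean intensity quantiles between arrays (Aquantile), and fitted on the log2 scale in limma 3.58.1 (R 4.3.3). The 9 control samples shared 1 fit with day as the factor and 6 residual degrees of freedom. Spots with a flag at or below -75 were left out. The threshold was an adjusted p of 0.05, two-sided. Changes were compared between channels on the log2 ratios of the arrays. Of 15247 gene probes 9442 had a symbol, of which 4128 were current, 3957 were updated through RefSeq and 1357 were kept. A fold written "at least" sets the brighter day's mean against the higher, on each array of the other day, of the probe's own value and the lowest signal well above background. It is used only where none of the other day's arrays was well above background. Genes with 1 such array, among them Bmp4, Tbx3, Pcdh18 and Pdgfrb at day 3, are given without it. The code was tested on simulated data.

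Named genes were the 15 largest called changes each way with a signal-to-noise ratio of at least 1.4 on all 3 arrays of the higher day and no overlap between days, up to 4 called members of each gene list, a panel, and the 5 largest differences each way between channels among called genes. Each was represented by its probe with the highest mean. The samples, lists, markers and named genes were chosen with earlier results of these data known. Genes named as list members outside this rule, to show what did not pass, were chosen after their values were seen. The samples of a number were checked for pairing, and the closing section gives the alternatives. The result of 1 gene is counted but not reported here.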

Additional observations from a re-analysis of the deposited data

Results flagged for a closer look

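For 51 of the 78 named genes, the change from day 3 to day 4 in the red channel differed from that in the green channel of the same arrays by limma's test on the log2 ratios of the arrays. The number after each gene is the red change minus the green change on the log2 scale. Dye effects that are equal on all arrays cancel in it. Which channel holds the controls is not settled. The rule for named genes took in the largest of these differences, so the count of 51 is partly set by it.

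Among genes higher at day 4 in the green channel, the red change was the smaller for Nrp (-1.69), Gata4 (-2.31), Pdgfra (-1.61), Gimap3 (-2.0), Igf2 (-0.53), Dkk1 (-2.12), Rspo3 (-1.73), Aldh1a2 (-1.44), Vldlr (-0.80), Nin (-1.62), Cdh2 (-2.57), Tbx3 (-0.81), Phlda2 (-1.87), Hmga2 (-1.71), Mesp2 (-2.71), Peg10 (-0.78), Ccnd2 (-2.13), Gas1 (-2.25), Upp1 (-3.14), Dsp (-0.50), Tfap2c (-1.68), Irx3 (-0.98) and Tcstv1 (-0.70). It was the larger for Adgra2 (1.08), Plac1 (1.19), Pdgfrb (0.67) and Tdo2 (1.77). Among genes lower at day 4 in the green channel, the red change was the less negative or above 0 for Spint1 (0.98), Epcam (0.76), Lima1 (1.28), Cldn7 (0.96), Col18a1 (0.84), Spp1 (1.66), Dtx1 (0.94), Slc35f2 (0.46), Sall2 (1.45), Sh3gl2 (1.19), Zwint (1.04), Lrp2 (1.28), Bmerb1 (0.87), SDF-1-beta (0.44), Pitrm1 (0.85), Uchl1 (1.91) and Adprh (0.60). Of genes that did not pass in the green channel, the red change was below the green change for Eomes (-2.17), Tdgf1 (-2.67) and Pou5f1 (-1.14), and above it for Hbb-y (1.27), Hba-x (1.43), Gata1 (0.87) and Cer1 (0.43). Of the 7 probes of Cer1 another differed the other way (-0.58, adjusted p = 0.0212 by limma), and the remaining probes did not differ, so Cer1 has no single direction. None of these differences was tested for a cause.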

How the results depend on the processing

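The count of 347 probes that differed between day 3 and day 4 was 223 with plain background subtraction, 197 with the 6 samples of days 3 and 4 alone, 632 in the separate-channel model and, among alternatives chosen after the data were seen, 713 with print block medians subtracted. Leaving out samples gave from 25 to 378. The lowest, 25, was without replicate 3 of every day, against 91 without replicate 2 and 181 without replicate 1 of every day; leaving out 1 sample at a time gave 183 (replicate 3 of day 4) to 378. The cause was not tested, beyond fewer samples in these fits. The other alternatives for this count stayed within 1.5 times, and the 1003 probes that differed between channels became 689 to 1289. The share of higher probes, 51%, was 38.9% above the median intensity and 36.2% in the authors' scaled values, and 65.9% and 72% without replicate 2 and replicate 3 of every day. With the replicate number as a block, 298 probes passed; same-numbered samples of days 3 and 4 correlated in their deviations with r of 0.432, -0.185 and 0.162, so the numbers were not taken as pairs.

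With the red channel as the controls, 9 of the 67 called named genes changed sign: Cdh2 to -0.18, Mesp2 to -0.75, Ccnd2 to -0.26, Gas1 to -0.39, Upp1 to -1.42, Tfap2c to -0.58, Irx3 to -0.18, Spint1 to 0.0812 and Lima1 to 0.18; another 21 kept their sign without passing and 37 passed. All 67 passed with flagged spots kept, with print-tip loess and with print block medians subtracted. At 3 samples a day and signals near background for 23 of the 96 higher genes at day 3, small changes and changes of dim genes are the least secure.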
